A study of Mus musculus with 12 samples.

Results

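The protamines and transition proteins are the small basic proteins that take the place of histones when the sperm nucleus is packed. The genes Prm1, Prm2, Prm3, Tnp1 and Tnp2 were followed here through nanopore direct RNA sequencing of sorted mouse spermatids, in which each read is 1 native poly(A) RNA molecule. They were found by gene symbol, as every contig whose symbol in the deposited tables is one of these 5 names, where a contig is 1 reference transcript to which reads were assigned. This gave 6 contigs of 12114, and 5 gene symbols of 7010. Prm1 had 2 contigs, called here the main contig (ENSMUST00000023144) and the distal contig (ENSMUST00000230568), after the first exon of the latter. Each of the other genes had 1 contig: ENSMUST00000037996 for Prm2, ENSMUST00000050864 for Prm3, ENSMUST00000027374 for Tnp1 and ENSMUST00000051297 for Tnp2.

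The libraries came from adult testis and fell into 4 groups of 3, made of 2 stages and 2 genotypes of Tent5c, wt/wt and dcat/dcat. The stages were round spermatids (RS), early haploid cells, and elongated spermatids (ES), in which the nucleus is condensing. The dcat allele makes TENT5C, a non-canonical poly(A) polymerase, catalytically dead. It is carried in every cell of the animal, and per the study's methods the spermatids were sorted on DNA dye fluorescence and light scatter, with RNA of 3 mice pooled in each library. Because the allele changes catalytic residues, counts of Tent5c reads cannot show which allele a library carried. Libraries held 337287 (ES wt/wt 3) to 1359427 (RS wt/wt 3) counts, and the p-values below measure the spread between pools of animals. Per the study's reporting summary, RS and ES were sorted from the same animals, so pools of the 2 stages are not independent. The main stage tests treat them as if they were.

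In mammals, the genes of this family are transcribed in round spermatids, and their mRNAs are then stored in translationally silent particles for days. Translation starts once the nucleus elongates. TNP1 and TNP2 enter the chromatin as histones leave, and the protamines follow. PRM1 is made in its final form. PRM2 is made as a longer precursor that is trimmed on the DNA. PRM3 shares the locus and the name, but is an acidic protein of the spermatid cytoplasm.

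The coding sequences show what sets these transcripts apart, and those of Prm1 and Tnp1 are given because they are the most abundant protamine and transition protein mRNAs of the data. Both are from GENCODE vM21 transcripts on GRCm38, 5′ to 3′, and arginine codons are in capitals.
Prm1: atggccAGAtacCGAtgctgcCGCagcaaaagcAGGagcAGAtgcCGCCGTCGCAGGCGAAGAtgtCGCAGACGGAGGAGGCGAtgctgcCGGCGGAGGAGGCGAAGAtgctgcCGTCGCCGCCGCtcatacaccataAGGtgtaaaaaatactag
Tnp1: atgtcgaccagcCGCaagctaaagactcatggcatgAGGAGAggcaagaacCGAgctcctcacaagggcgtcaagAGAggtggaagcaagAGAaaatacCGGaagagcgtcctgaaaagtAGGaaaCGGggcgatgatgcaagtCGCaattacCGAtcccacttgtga
In Prm1, 28 of 51 codons (54.9%) encode arginine, most of them in uninterrupted runs, and 9 encode cysteine, the residue that cross-links protamines. In Tnp1, 11 of 55 codons encode arginine and 10 encode lysine, with 0 for cysteine, and the basic codons are scattered. Prm2 has 38 arginine codons of 107 and 16 for histidine. Tnp2 has 16 arginine and 11 lysine codons of 117. Prm3 stands outside this pattern, with 2 arginine and 7 lysine codons of 101 (8.91% basic).

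Tnp2, Prm3, Prm2 and Prm1 lie in this order on chromosome 16, all on the minus strand. From the 3′ end of Tnp2 to the 5′ end of the main Prm1 contig the cluster covers 8951 bases (chr16:10787936-10796886, GRCm38). Tnp1 lies alone at chr1:73015074-73015909, also on the minus strand. The transcripts are short, from 410 bases for Prm3, which has a single exon, to 621 bases for Prm2. The 2 Prm1 contigs have the same coding sequence and share their last 359 bases. The main contig starts with 110 bases of its own, and the distal contig starts with 101 bases that come from a distal first exon at chr16:10805738-10805839, 8851 bases upstream of the main contig. Reads that end inside the shared stretch cannot be told apart by sequence, so the split between these contigs is uncertain, whereas their sum is not affected.

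Since the members moved together (below), the stretch from 120 to 41 bases upstream of each RefSeq start is shown, 5′ to 3′, with matches to TGANNTCA on either strand in capitals. TGANNTCA is a degenerate form of the cAMP response element, the site of CREM, which is the transcription factor best known from round spermatids.
Prm1, chr16:10796864-10796943, minus strand: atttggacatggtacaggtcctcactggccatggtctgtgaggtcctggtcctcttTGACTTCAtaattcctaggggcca
Prm2, chr16:10792146-10792225, minus strand: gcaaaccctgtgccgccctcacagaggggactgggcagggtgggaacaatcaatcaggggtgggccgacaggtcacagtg
Prm3, chr16:10790955-10791034, minus strand: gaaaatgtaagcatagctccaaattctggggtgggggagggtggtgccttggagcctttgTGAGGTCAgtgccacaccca
Tnp1, chr1:73015940-73016019, minus strand: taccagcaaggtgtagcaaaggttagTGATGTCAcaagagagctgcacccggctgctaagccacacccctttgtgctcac
Tnp2, chr16:10788696-10788775, minus strand: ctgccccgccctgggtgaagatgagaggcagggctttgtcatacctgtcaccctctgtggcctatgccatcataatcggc
Prm1, Prm3 and Tnp1 held 1 match each, whose first base lay 64, 60 and 94 bases upstream of the start, and Prm2 and Tnp2 held 0. Over the 250 bases upstream of 32817 RefSeq promoters of the same build, 11.9% held a match, and 4.70% held one in the 80 bases shown. The full palindrome TGACGTCA was in 0 of the 5 windows of 250 bases, against 1.55% of all promoters. TATAA, on either strand, was in the 250 bases of Prm1, Prm2 and Tnp2, starting 32, 30 and 33 bases upstream, against 22.8% of all promoters. GENCODE places the start of the main Prm1 contig 63 bases upstream of the RefSeq start, so its TATAA match lies inside that contig. So do the end of the Prm1 stretch shown and all but the first base of its TGANNTCA match. The 250 bases upstream of the distal first exon held none of these letters.

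The 5 genes together were a small share of the molecules in RS and a large one in ES. Where 3 library values are given for a group, they are those of libraries 1, 2 and 3 in this order. Their summed share of RS counts was 2.30%, 4.09% and 4.88% for wt/wt libraries, beside 2.75%, 4.11% and 4.92% for dcat/dcat. The ES sums were 17.99%, 20.4% and 16.9% for wt/wt libraries, beside 18.1%, 18.6% and 17.4% for dcat/dcat. The stages did not overlap, and the genotypes did. How many of all contigs separate the stages without overlap was not counted, here or for the single genes below. Such separation is therefore not read as particular to the members.

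Prm1, the protamine of every mammal, led. Its main contig was the most abundant of all 12114 contigs in each of the 12 libraries. RS wt/wt libraries gave it 0.892%, 1.60% and 1.93% of their counts, beside 1.05%, 1.55% and 1.93% for dcat/dcat. ES wt/wt libraries gave it 7.58%, 8.52% and 7.21%, beside 7.75%, 7.73% and 6.89% for dcat/dcat, so the lowest ES library was 3.57 times the highest RS library.

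Tnp1, the more abundant of the transition proteins, came next. It ranked 2 to 5 in RS and 2 in each ES library. RS wt/wt libraries gave it 0.495%, 0.971% and 1.12% of their counts, beside 0.604%, 1.03% and 1.11% for dcat/dcat. ES wt/wt libraries gave it 3.49%, 4.63% and 3.32%, beside 3.61%, 4.38% and 3.85% for dcat/dcat, with no overlap between stages.

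Prm2 and Tnp2, neighbours in the cluster apart from Prm3, were level with each other. Prm2 took 0.435%, 0.716% and 0.860% of the RS wt/wt libraries, beside 0.497%, 0.735% and 0.907% of dcat/dcat. Tnp2 took 0.436%, 0.711% and 0.864% of the same wt/wt libraries, beside 0.546%, 0.732% and 0.872% of dcat/dcat. In ES they took ranks 3 and 4 in either order, so the 4 most abundant contigs of each ES library were those of Prm1 (main), Tnp1, Prm2 and Tnp2. Prm2 took 3.43%, 3.25% and 2.90% of the ES wt/wt libraries, beside 3.19%, 2.89% and 3.25% of dcat/dcat. Tnp2 took 3.14%, 3.37% and 2.96% of the ES wt/wt libraries, beside 3.27%, 3.01% and 2.75% of dcat/dcat.

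Prm3, the acidic member, was far scarcer. It ranked 207 to 515 in RS and 23 to 37 in ES. RS wt/wt libraries had 326, 399 and 847 Prm3 counts, beside 281, 265 and 575 for dcat/dcat, or 0.0355% to 0.0623% of each library. ES wt/wt libraries had 1503, 1793 and 695, beside 1121, 1035 and 1645 for dcat/dcat, or 0.197% to 0.257%. In share of counts the stages again did not overlap, although the deepest RS library held more Prm3 reads than the shallowest ES library.

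**Figure D1:**
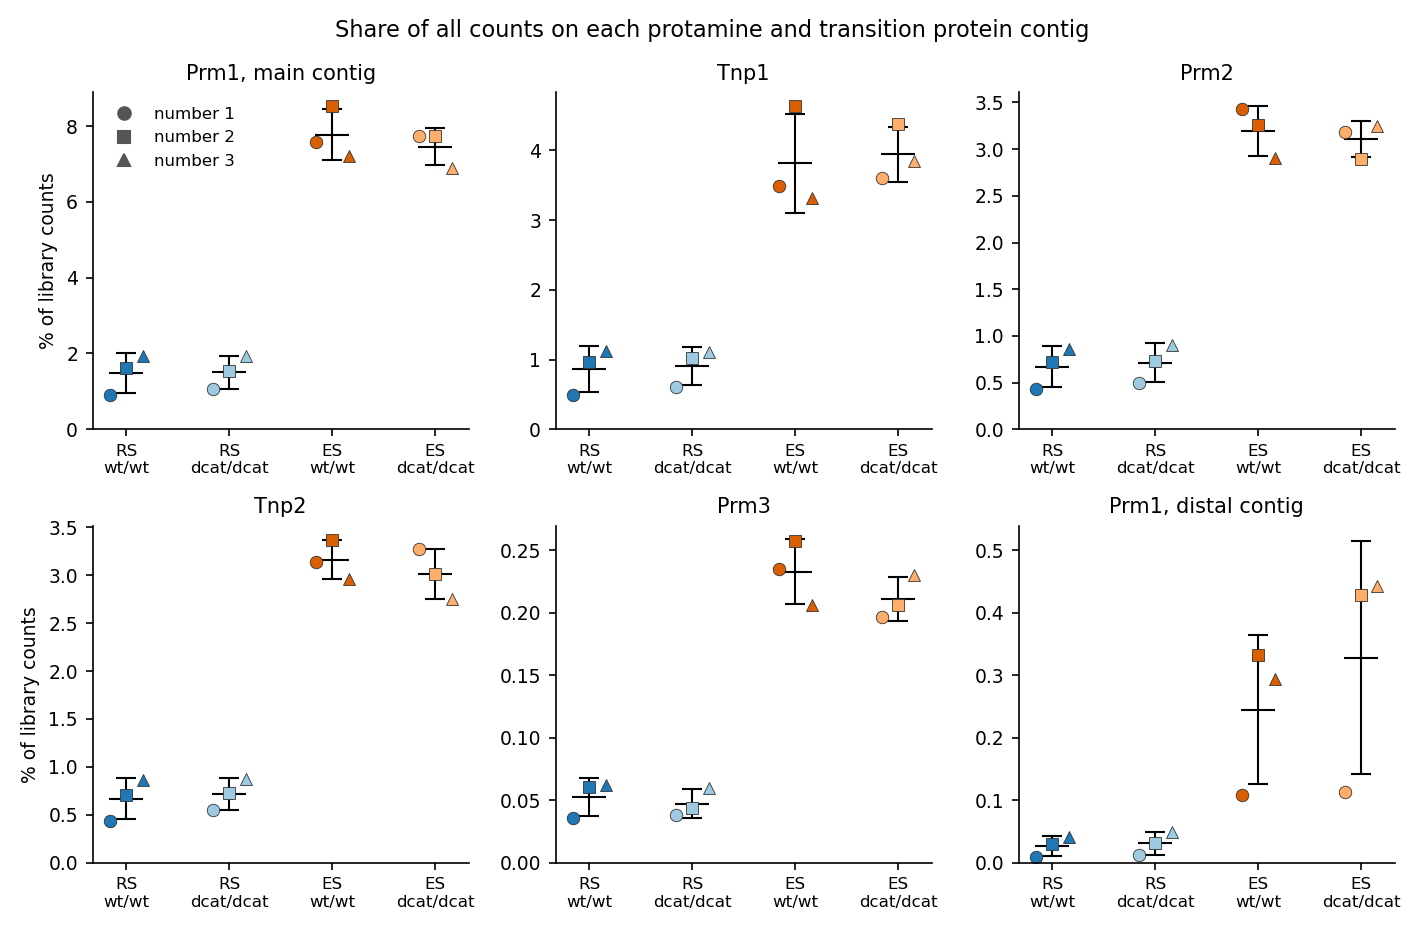
Share of all counts of a library (%) on each of the 6 contigs, by group, with 1 symbol per library (circle, square and triangle for numbers 1, 2 and 3), and the mean (long bar) with SD (whiskers) of 3 libraries. Each panel has its own axis from 0. In all 6 panels every ES library lies above every RS library, and the wt/wt and dcat/dcat libraries of a stage overlap. How many of all contigs separate the stages in this way was not counted.

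In numbers of molecules, the order was Prm1, Tnp1, then Prm2 and Tnp2, then Prm3. CPM here are counts as a rate of the library total, after TMM correction for composition. In ES wt/wt, the main Prm1 contig averaged 100383 ± 13616 CPM (SD, n = 3), Tnp1 49366 ± 11100, Prm2 41331 ± 6051, Tnp2 40814 ± 4896 and Prm3 3013 ± 498. Divided by transcript length, the order of levels in ES wt/wt was Prm1 (main) with 214036 CPM per kb, Tnp1 with 112966, Tnp2 with 73671, Prm2 with 66555 and Prm3 with 7350. Among these contigs only Prm2 and Tnp2 changed places with the division, and these neighbours did not differ beyond their spread.

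Each of the 6 contigs was higher in ES than in RS in both genotypes. Over all contigs tested, 23.8% were called higher in wt/wt and 24.0% in dcat/dcat, by edgeR's quasi-likelihood test with a Benjamini-Hochberg adjusted p (q) at or under 0.05. In wt/wt, the main Prm1 contig was 8.60-fold higher (log2 3.10, SE 0.27, 95% interval 2.52 to 3.69, q = 1.9e-06), and in dcat/dcat 7.91-fold (log2 2.98, SE 0.27, q = 3.2e-06). The single contigs of the other 4 genes had close log2 values, which for Prm2, Prm3, Tnp1 and Tnp2 were 2.96, 2.86, 2.85 and 2.95 with wild-type TENT5C and 2.80, 2.82, 2.78 and 2.75 with the mutant, with SE between 0.24 and 0.30. The median over all 11831 contigs tested was -0.24 in wt/wt and -0.18 in dcat/dcat. These folds were not the extremes of the transcriptome, since the 5 contigs ranked 216 to 431 by log2 change in wt/wt.

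The size of the change depends on the scaling. With total counts in place of TMM, the median of all contigs moved by -0.71 in wt/wt and -0.66 in dcat/dcat, and the 6 contigs rose by log2 2.14 to 3.18 and 2.07 to 3.39, with q at most 7.6e-04. Relative to that shift the values are close to those with TMM. In bulk libraries, more cells of a type and more RNA of a kind per cell cannot be told apart. Shares and CPM are also relative to the library. A higher value can therefore stand for mRNA that was kept while other mRNA was lost, and does not show more molecules per cell. The paper infers relative mRNA stability from this stage change, and describes absolute transcript abundance as falling during elongation.

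ES libraries also held more reads of markers of somatic cells of the testis. Of 7 Leydig markers, 3 had a contig (Insl3, Cyp17a1, Cyp11a1), all 3 were called higher in ES in both genotypes, and their sum was 9.14 to 37.8 CPM in RS and 183 to 692 CPM in ES libraries. Insl3 made up most of it, with a mean of 443 CPM of 522 CPM in ES wt/wt, beside 56.2 for Cyp17a1 and 22.8 for Cyp11a1. The paper treats Insl3 mRNA as a TENT5C target in ES as well as in Leydig cells, so Insl3 is not a marker of somatic cells alone there. Of 10 Sertoli markers, 5 had a contig, 4 of them called higher, with sums of 16.03 to 56.4 CPM in RS and 224 to 472 CPM in ES. Of 6 leukocyte markers, 2 had a contig (Cd74 and C1qb), both called higher, with 4.15 to 10.6 CPM in RS and 92.7 to 169.8 CPM in ES. The defining markers Star, Lhcgr, Sox9, Wt1 and Ptprc and the 5 red cell genes matched none of the 12114 contigs. The 7 round spermatid markers summed to 1501 to 1645 CPM in RS and 734 to 873 CPM in ES, and 7 of 9 spermatocyte markers to 705 to 787 CPM and 597 to 716 CPM. The part of these cells in the changes of the members was not tested.

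As a share of all counts of a library, with no TMM scaling, each gene differed between stages. Mean shares were higher in ES by 6.38 percentage points for Prm1, 2.99 for Tnp1, 2.46 for Prm2, 2.39 for Tnp2 and 0.172 for Prm3. Each had p = 0.005 in an exact two-sided permutation test within genotype, the smallest that 400 arrangements allow, and q = 0.01 over 10 tests.

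None of the members was called between genotypes. In RS, 0 of 6 contigs were called between dcat/dcat and wt/wt, with 0% called over all contigs, and log2 differences ran from -0.15 (Prm3) to 0.20 (distal Prm1). In ES, 0 of 6 were called, again with 0% over all contigs, and values ran from -0.18 (Prm3) to 0.38 (distal Prm1). The smallest unadjusted p among the members was 0.51 in RS and 0.42 in ES, edgeR gave 98 and 356 contigs of 11831 an unadjusted p under 0.05, and DESeq2 called 0 of 6 members in either stage. For the main Prm1 contig the 95% interval was -0.51 to 0.57 in RS and -0.63 to 0.45 in ES. With 3 libraries a group, any change inside these bounds remains compatible with the data. The bounds are not a limit of detection, because calls were made on q over all contigs. The stage by genotype interaction also gave 0 calls among 6 contigs and 0% over all, with values from -0.20 (Tnp2) to 0.18 (distal Prm1) and edgeR p-values of 0.55 or more, while 170 of all contigs had an unadjusted p under 0.05 and DESeq2 called 0 members. Among the 5 shares of counts, the smallest p between genotypes was 0.215, for Prm3, in the exact permutation test within stage.

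**Figure D2:**
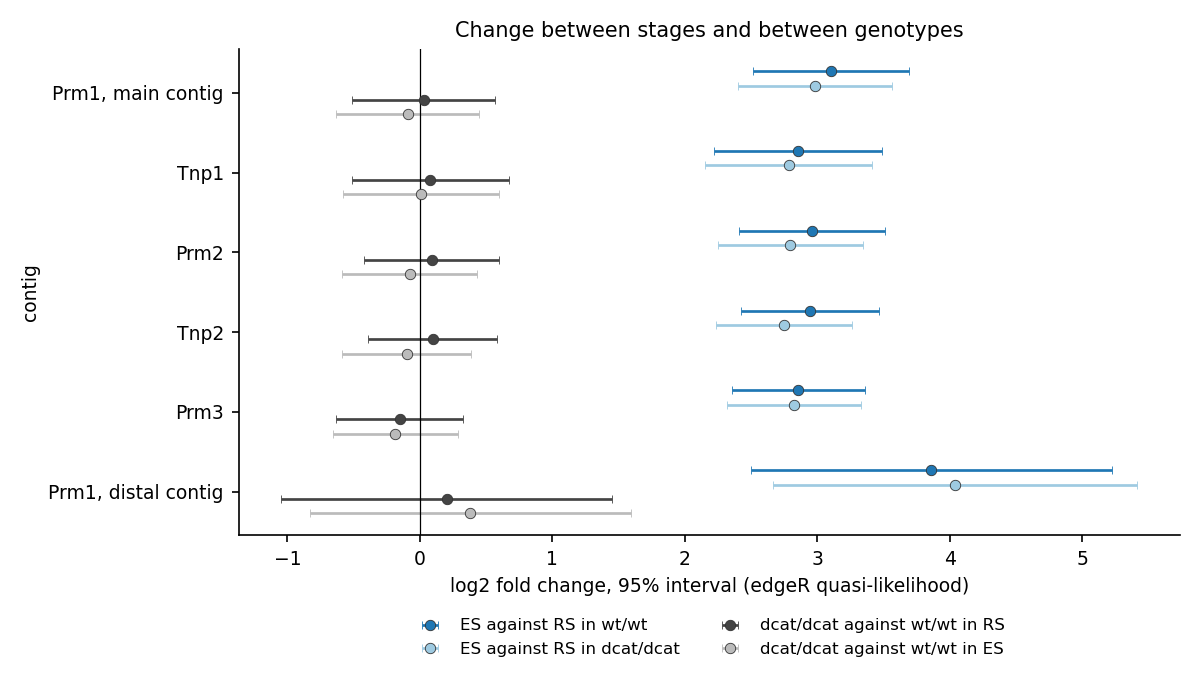
Log2 fold change (x axis) of the 6 contigs (y axis) between stages (blue) and between genotypes (grey), with 95% intervals from the edgeR quasi-likelihood fit to 12 libraries. All 12 stage intervals lie above 2, and all 12 genotype intervals span 0, widest for the distal Prm1 contig.

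Ratios between members within a library do not depend on library scaling. Prm2 and Tnp2, one a protamine and the other a transition protein, were read in nearly equal numbers. The Prm2/Tnp2 ratio averaged 0.9999 ± 0.0066 for wt/wt and 0.985 ± 0.068 for dcat/dcat libraries of RS, and 1.01 ± 0.068 for wt/wt and 1.04 ± 0.12 for dcat/dcat libraries of ES (SD, n = 3). Its stage difference was log2 0.04 (exact permutation p = 0.525). Tnp1 exceeded Tnp2 in each of the 12 libraries, by a ratio of 1.11 to 1.40 in RS and 1.10 to 1.46 in ES, and it exceeded Prm2 in each as well.

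Prm1 gained on Tnp1 and on Tnp2 between stages by a small margin. The Prm1/Tnp1 ratio averaged 1.75 ± 0.068 for wt/wt and 1.69 ± 0.13 for dcat/dcat libraries of RS. For ES libraries it averaged 2.12 ± 0.19 (wt/wt) and 1.98 ± 0.17 (dcat/dcat). That is 1.19-fold higher in ES, and every ES library (1.86 to 2.26) lay above every RS library (1.54 to 1.82). The Prm1/Tnp2 ratio was 2.22 ± 0.13 and 2.12 ± 0.16 in RS wt/wt and dcat/dcat, and 2.53 ± 0.089 and 2.59 ± 0.17 in ES. It was 1.18-fold higher in ES, again with no overlap. Both had an exact permutation p of 0.005, the smallest possible, and q = 0.05 over 20 ratio tests, which is at the threshold. Prm1/Prm2 was 1.15-fold higher and did not pass (p = 0.015, q = 0.1, exact permutation), nor did Prm1/Prm3, at 1.19 (p = 0.03, q = 0.15). With labels exchanged only between libraries of the same number (replicate block, 64 arrangements), q was 0.125 for Prm1/Tnp1 and Prm1/Tnp2, with p = 0.03125 for each, the smallest that this exact permutation test can give. The differences, log2 0.25 and 0.24, are the same in both tests, and the larger q says nothing about their stability. Neither ratio passed when any one of RS wt/wt 1, 2 and 3, RS dcat/dcat 1 and 2 and ES dcat/dcat 1 was left out (log2 differences of 0.22 to 0.29 and 0.21 to 0.27 over all 12 omissions), while without ES wt/wt 1 Prm1/Prm2 passed too (q = 0.0333, exact permutation).

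The 6 ratios without Prm1 had stage differences between log2 -0.01 and 0.06, each with an exact permutation p of 0.495 or more. Between genotypes 0 of 10 ratios passed. The smallest p-values were for Prm2/Prm3 (log2 0.17, p = 0.055) and Prm3/Tnp1 (log2 -0.23, p = 0.065), both with q = 0.217 in the exact permutation test. In RS the Prm3/Tnp2 ratio was 0.079 ± 0.007 in wt/wt and 0.066 ± 0.005 in dcat/dcat, a log2 difference of -0.26. In ES it was 0.074 ± 0.004 and 0.071 ± 0.012, a log2 difference of -0.07. Over both stages the genotype difference of this ratio had an exact permutation p of 0.1.

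**Figure D3:**
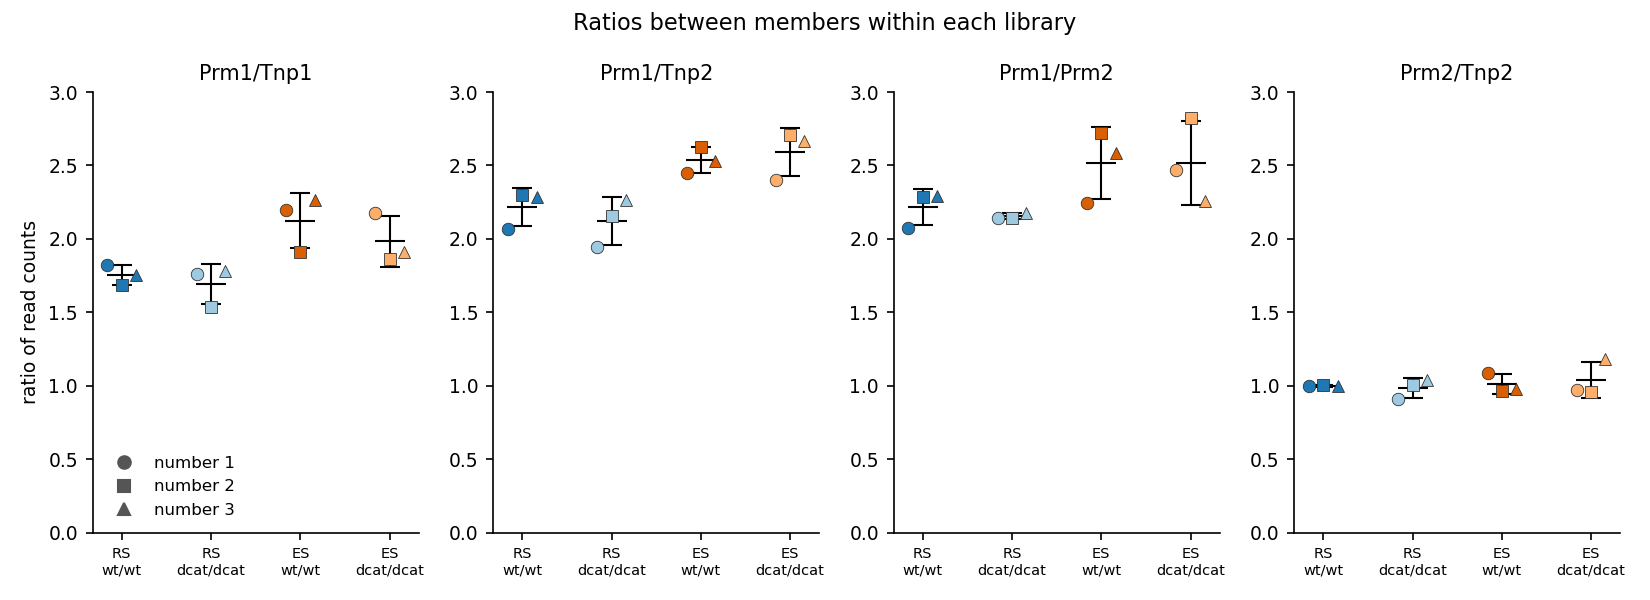
Ratios of read counts between pairs of members (y axis, from 0 to 3) in each library, by group, with the mean and SD of 3 libraries and 1 symbol per replicate number. Prm1/Tnp1 and Prm1/Tnp2 do not overlap between RS and ES, Prm1/Prm2 does, and Prm2/Tnp2 stays near 1.

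RS libraries differed from each other far more than ES libraries did, and all members shared the difference. Between the lowest and the highest of 6 RS libraries, CPM differed 2.28-fold for Prm1 (main), 2.38-fold for Tnp1, 2.16-fold for Prm2, 2.08-fold for Tnp2 and 1.85-fold for Prm3. In ES the same spread was 1.34-fold to 1.55-fold. In RS the 2 libraries numbered 1, of either genotype, were the lowest for all 5 genes. Over both genotypes, the replicate number accounted for 84.1% (Prm3) to 97.0% (Prm2) of the variance of log2 CPM among RS libraries. Among ES libraries it accounted for 83.5% for Prm1, 83.7% for Tnp1, 78.0% for Tnp2, 55.3% for Prm2 and 21.2% for Prm3, and number 1 was the lowest for none of them. With 2 libraries per number, part of the variance falls to the number even where nothing is shared. These shares were not tested. Per the study's reporting summary, RS and ES were sorted from the same animals, and each sorting session took 1 mouse of each genotype. Whether libraries with the same number hold the same animals or sessions is not given in the sources used here.

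Within RS, the 10 pairs of members correlated with Pearson r between 0.888 and 0.997 over 6 libraries, and Spearman's rho between 0.714 and 1. Exact permutation p-values for r ran from 0.0014 to 0.014 (q at most 0.025 over 20 tests) and those for rho from 0.0028 to 0.136. Libraries that share a number lay close together in RS, and for Prm1, Tnp1 and Tnp2 in ES as well, so the 6 of a stage were not independent and the p-values of both stages are too small. With the 2 libraries farthest from the median left out, r stayed between 0.90 and 0.99 for the 6 pairs among Prm1, Prm2, Tnp1 and Tnp2, and fell to 0.36 to 0.71 for the 4 pairs with Prm3, whose relation rested on those libraries. Within ES, r ranged from 0.374 to 0.918, and 1 of 10 pairs passed (Prm1 and Tnp2, r = 0.918, rho = 1, q = 0.011 for r, exact permutation). Without the 2 farthest libraries that pair had r = 0.66.

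The spread between RS libraries was also seen in other contigs. From library 1 to library 3, the median log2 difference of the 6 contigs was 1.12 in wt/wt and 0.88 in dcat/dcat, and 6 of 6 were higher in library 3 of both genotypes. Over all 11831 contigs the medians were 0.06 and 0.03, and 4605 were higher in both. The 2807 other contigs that were higher in ES wt/wt had medians of 0.46 and 0.36, with 1888 higher in both. For stored mRNAs of sperm tail and cytoplasm the medians were 0.76 and 0.86 (30 of 36 contigs higher in both), and for round spermatid markers 0.02 and 0.05 (3 of 10). Histone variants, of the testis and of most cells, had medians of 0.80 and 0.37 (9 of 14 higher in both). Regulators of protamine transcription and translation had 0.12 and 0.31 (22 of 41), and factors of histone eviction 0.26 and 0.08 (13 of 26). Markers of other cells also differed. The medians were 0.94 and 0.21 for Leydig markers (3 of 3 higher in both), 0.48 and 1.46 for Sertoli markers (4 of 5), 0.82 and 0.50 for leukocyte markers (2 of 2), and 0.30 and -0.21 for spermatocyte markers (4 of 12). The part of these cells in the spread of the members was not tested. Without the 4 libraries numbered 1, a setting chosen after seeing this spread, the 6 contigs were still higher in ES, by log2 2.59 to 3.79 in wt/wt and 2.48 to 4.05 in dcat/dcat (largest q 1.0e-13).

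**Figure D4:**
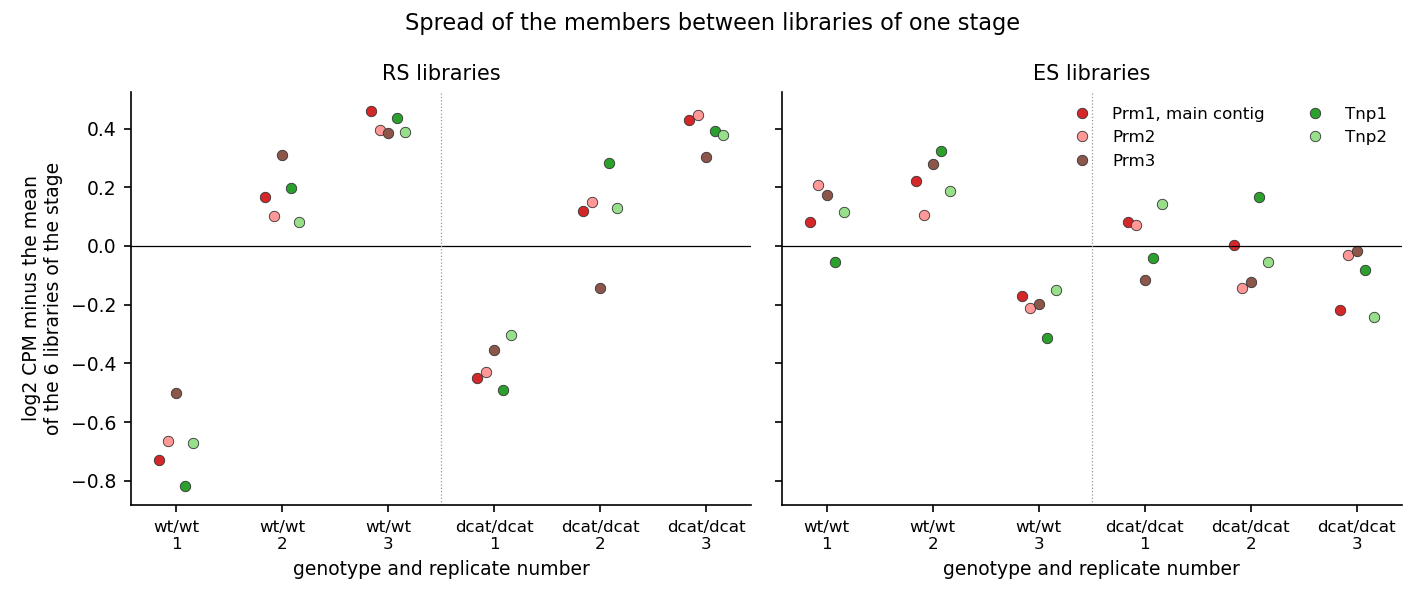
Log2 CPM of the most abundant contig of each gene, minus its mean over the 6 libraries of the stage (y axis), for RS (left) and ES (right), by genotype and replicate number; each colour is 1 contig. In RS the libraries numbered 1 are lowest for all 5 contigs in both genotypes, and in ES no number is lowest in both genotypes for all 5.

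The minor Prm1 contig varied most. RS wt/wt libraries held 90, 200 and 557 counts of the distal contig, beside 93, 187 and 479 for dcat/dcat. ES wt/wt libraries held 696, 2312 and 994, beside 649, 2156 and 3160 for dcat/dcat. The libraries numbered 1 were the lowest of each group. Between stages its fold was 14.5 in wt/wt (log2 3.86, SE 0.64, q = 2.5e-04) and 16.5 in dcat/dcat (log2 4.04, SE 0.64, q = 1.9e-04), with intervals that included the change of the main contig.

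As a share of Prm1 reads, the distal contig made up 1.09%, 1.85% and 2.08% for RS wt/wt libraries, beside 1.19%, 1.96% and 2.53% for dcat/dcat. The ES shares were 1.42%, 3.75% and 3.93% for wt/wt libraries, beside 1.45%, 5.26% and 6.03% for dcat/dcat. The Wilson 95% intervals, which cover counting error only, were narrow against these differences: 1.31% to 1.52% in ES wt/wt 1 and 3.60% to 3.90% in ES wt/wt 2. The log2 ratio of the distal to the main contig was higher in ES by 0.91, which did not pass (exact permutation p = 0.075), and higher in dcat/dcat by 0.28 (p = 0.515). Within libraries of the same number (replicate block) each difference kept its sign in all 6 comparisons, and the exact permutation test gave p = 0.03125 for both, the smallest of 64 arrangements. These tests were chosen after the counts had been seen, and were not adjusted. Within ES, libraries 2 and 3 had 2.78 times (wt/wt) and 4.06 times (dcat/dcat) the ratio of library 1, a larger difference than that between genotypes. The region of the distal exon also lies inside Gm46563, an antisense gene on the plus strand, which is not among the contigs with counts.

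**Figure D5:**
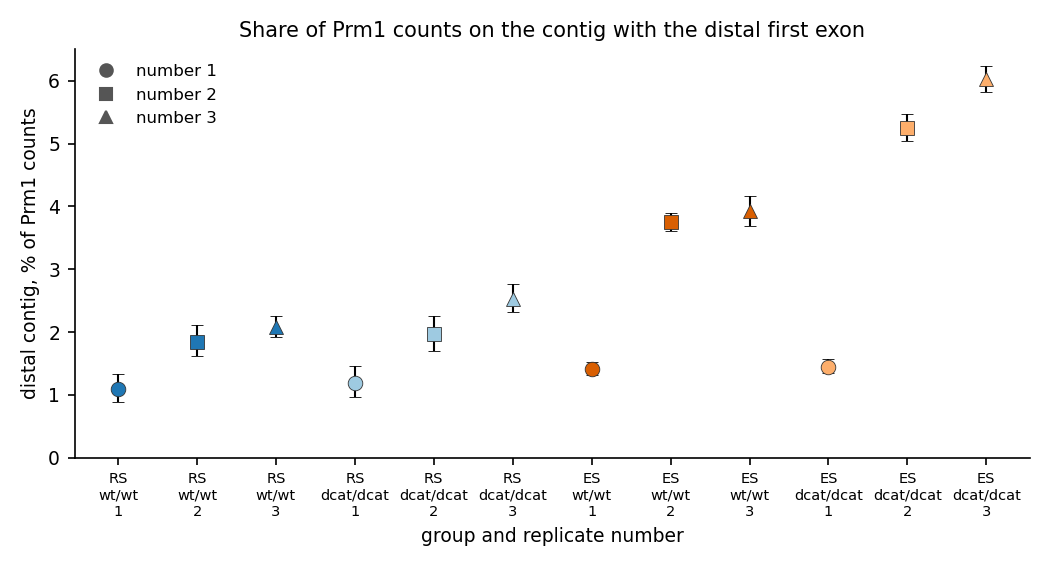
Share of Prm1 counts assigned to the distal contig (%, y axis from 0) in each of the 12 libraries, with Wilson 95% intervals for counting error. The libraries numbered 1 lie between 1.09% and 1.45% in all 4 groups, and the others between 1.85% and 2.53% in RS and between 3.75% and 6.03% in ES.

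Over all 12 libraries the members resembled each other closely, but so did many other contigs, which often ranked before them. The likeness is Pearson's r of log2 CPM over 12 libraries among 3497 other contigs with a mean of at least 50 CPM. It is a description, since the 12 points fall into 2 stages and all values share the same libraries. For the main Prm1 contig, Tnp2 ranked 2 (r = 0.9994), Prm2 ranked 13, Tnp1 ranked 32 and Prm3 ranked 61. For Prm3 the closest member was the main Prm1 contig at rank 11, and Tnp1 ranked 100. For Tnp2, Tnp1 ranked 79 and Prm3 ranked 88. The contigs without membership closest to the main Prm1 contig were Tex37 (Spmip9, r = 0.9995), H2al2a (r = 0.9993), which encodes a short histone H2A variant that works with transition proteins, and 1700042G07Rik (P3r3urf, r = 0.9992). Tex37 was also the closest to Tnp2 (r = 0.9995). For Prm2 the closest were Gm136, Dbil5 and Tex37, with r between 0.9981 and 0.9989. For Tnp1 they were 1700008P02Rik, Psma6, a proteasome subunit, and 1700015G11Rik (Ccdc179), with r between 0.9982 and 0.9984. Prm3 had Tuba1c, an alpha tubulin, Aldh1l1 and Dynll2, a dynein light chain, with r between 0.9967 and 0.9976. The distal Prm1 contig was less like the others, with ranks of 516 to 810.

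The factors known to act on these genes and their mRNAs had contigs called in both directions. Over all contigs, 16.5% were called lower in ES wt/wt and 16.9% in dcat/dcat, beside the 23.8% and 24.0% called higher. Of 41 contigs of 17 regulators of protamine transcription and translation, 13 were higher and 8 lower in ES wt/wt, and 14 and 10 in dcat/dcat, with a median log2 of 0.04 and 0.03 beside -0.24 and -0.18 over all contigs. These shares are not far from the background, so nothing about the list is read from them. In this and the next lists, a named gene stands for 1 of its contigs unless a number is given. Among those lower in ES were transcription factors of round spermatids. A contig of Crem fell by 1.19 (log2) in wt/wt (q = 0.0089) and by 1.75 in dcat/dcat. It is a minor one of 3 Crem contigs, with 37.8 ± 3.53 CPM in RS wt/wt, where the 3 together held 1112 counts. Its fall is not that of all Crem reads. Tbpl1, a TBP-like factor, fell by 1.65 (q = 1.5e-04), and Gtf2a1l, its germ cell TFIIA partner, fell by 1.24 (q = 6.1e-05). Pabpc1, a poly(A) binding protein, fell by 0.67 (q = 0.013). Higher in ES were Fhl5 (ACT, the coactivator of CREM; log2 2.69, q = 5.9e-06), Paip2, an inhibitor of poly(A) binding proteins that is needed for protamine translation (log2 1.89, q = 5.2e-06), and 2 contigs of Fxr1, an RNA-binding protein (log2 2.33 and 2.23). All q-values are from edgeR over all contigs, and the named values keep their sign with total counts as scaling.

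The histone variants also had contigs called in both directions. The list holds variants of the testis as well as variants that most cells use. Of its 14 contigs, 7 were higher and 3 lower in ES wt/wt, with a median log2 of 1.05. In dcat/dcat 7 were higher and 2 lower, with a median of 1.12. The share called lower is near the background. H2al2a rose by log2 3.17 (q = 2.4e-06), from 247 ± 95.1 to 2224 ± 424 CPM (SD, n = 3). The linker histones H1fnt (H1f7) and Hils1 (H1f9), which occur in condensing spermatids, rose by 2.86 and 2.12, and 1700024P04Rik (H2bl1) rose by 2.89. The 3 lower ones were H2afz (H2az1), which fell by 1.02, H3f3a, which fell by 0.87, and H3f3b, which fell by 0.42 (q = 0.045) and had log2 -0.11 in dcat/dcat, where it was not called. They encode replication-independent histones that most cells use, so no testis-specific variant on the list was called lower.

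Of 26 contigs of factors of histone eviction, 7 were higher and 5 lower in ES wt/wt, and 7 and 3 in dcat/dcat, shares near the background. The median log2 was -0.26 in wt/wt, close to that of all contigs. Higher were Tssk6, a kinase needed for histone removal (log2 2.60, q = 1.9e-06), Hmgb4 (2.57), Cdyl, a chromodomain protein (2.47), and Camk4, a kinase that acts on PRM2 (2.16). Lower in wt/wt were Hspa2, a chaperone of transition proteins, which fell by 0.88 (q = 0.0049), Morf4l1, which fell by 0.92, and 2 contigs of Kat5, the acetyltransferase TIP60, which fell by 1.37 and 1.68. In dcat/dcat, Morf4l1 (log2 -0.42, edgeR q = 0.145) and the latter Kat5 contig (log2 -1.20, edgeR q = 0.0565) were not called. That Kat5 contig had few reads, with 7.21 ± 5.39 CPM in ES wt/wt, as had Camk4, with 7.52 ± 1.35 CPM in RS wt/wt.

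Stored mRNAs of sperm tail and cytoplasm, which share the delayed translation of the protamines, were mostly higher in ES: 29 of 36 contigs in wt/wt and 30 in dcat/dcat, with 0 lower. Their median log2 was 1.87 and 1.90, below the 2.96 and 2.81 of the 6 protamine and transition protein contigs. Akap4, of the fibrous sheath, rose by log2 3.16 (q = 4.7e-08), Smcp, of the mitochondrial capsule, by 2.43, Odf1 by 2.18 and Odf2 by 2.08, the last pair from outer dense fibres. In wt/wt Odf1 went from 781 ± 126 to 3534 ± 577 CPM and Smcp from 844 ± 140 to 4558 ± 959 CPM (SD, n = 3). None of the contigs in these 4 lists was called between genotypes in either stage by edgeR.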

How the data were processed

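Nanopore direct RNA sequencing was done on 12 libraries, each from pooled RNA of 3 mice selected on oligo(dT) beads. The authors called bases with Guppy, aligned reads to GENCODE vM17 transcripts (GRCm38; the submitters' processing notes name mm10, SAMtools, DESeq2 and minimap2 2.20-r1061), kept reads with a passing poly(A) tail call and demultiplexed with Deeplexicon. These steps fix which molecules are counted. The deposited table holds unnormalized counts per contig. The authors' DESeq2 tables (log2 fold changes and adjusted p-values) were used for gene symbols alone, which differed between tables for 3 contigs.

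Counts were scaled by TMM and fitted with edgeR 4.0.16 (quasi-likelihood, 12 libraries, 1 mean per group; R 4.3.3) over 11831 contigs with at least 10 counts in at least 2 libraries of a group. SE is the log2 change divided by the square root of F, and intervals use the fitted degrees of freedom. The fit was tested on simulated data. Shares and ratios (pseudocount 0.5) used exact permutation tests within the other factor (400 arrangements), with Benjamini-Hochberg adjustment over 10 and 20 tests, and correlations used 720 arrangements.

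Alternatives were total counts as scaling, scaling without the members, DESeq2 1.42.0, other filters, sums by gene, the compared groups only, each library left out, and the replicate number as a block. Positions and sequences came from GENCODE vM21 and RefSeq on GRCm38. The members and lists were chosen with earlier results of these data known. Every member contig was named, and per list up to 4 contigs in each direction with the smallest q in ES wt/wt, and per gene the 3 most similar contigs. RS and ES came from the same animals per the study's reporting summary, but what a number shares is not given in the sources used here. Same-numbered libraries deviated together in RS wt/wt and RS dcat/dcat (r of 0.777, 0.493 and 0.608 over 6810 contigs). They also did in RS and ES dcat/dcat (0.624, 0.363 and 0.414) and in RS wt/wt and ES dcat/dcat (0.545, 0.375 and 0.27). With ES wt/wt, numbers 1 and 2 deviated together (0.503 and 0.496 for RS wt/wt, 0.549 and 0.442 for RS dcat/dcat, 0.627 and 0.457 for ES dcat/dcat). Number 3 did not (-0.175, -0.077 and 0.051), and ES wt/wt 3 had the fewest counts of all libraries. No pair of libraries held identical counts (0 pairs).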

Additional observations from a re-analysis of the deposited data

How the results depend on the processing

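All 6 contigs were called higher in ES in both genotypes under every setting run, including each library left out (log2 2.56 to 4.57), and 0 were called between genotypes or for the interaction under any; the replicate block changed no call of a contig. The block called 6105 contigs of all in wt/wt and 6145 in dcat/dcat, in place of 4766 and 4849, and total counts as scaling called 7364 and 6959. The filter of 10 counts in every library left 3719 contigs and called 2588 and 2562. The 2 ratios that passed between stages became 0 of 10 with the replicate block and 0 without the 4 libraries numbered 1, a setting added after seeing the data. Without those libraries 36 arrangements are left, so that no exact permutation p can be under 0.0556; Prm1/Tnp1 and Prm1/Tnp2 were at that limit with log2 differences of 0.23 each. This 0 and that of the block thus say nothing about stability. The count was 0 to 3 with single libraries left out. In RS the 10 correlations that passed became 0 to 9, lowest without number 1 of either genotype, and in ES the count of 1 became 0 with log2 percent as the scale and 0 to 2 with libraries left out; fewer libraries allow fewer arrangements.

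Directions near 0 were not stable. Tnp1 in ES changed from log2 0.01 between genotypes to -0.0145 without a filter and -0.0155 with DESeq2. The main Prm1 contig in RS changed from 0.03 to -0.0375 without the libraries numbered 1. The interaction for Prm3, -0.03, became 0.00902 with total counts, 0.0131 with 10 counts in every library and 0.11 without the libraries numbered 1. In ES, r of Prm2 and Tnp1 was -0.0418 on log2 percent and -0.15 to 0.64 with libraries left out. The Prm2/Tnp2 stage difference was -0.00481 to 0.0697 on the log2 scale with libraries left out.

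With single libraries left out, the RS genotype difference (log2) ran from -0.24 to 0.29 for the main Prm1 contig, -0.33 to 0.68 for the distal Prm1 contig, -0.16 to 0.33 for Prm2, -0.38 to 0.00846 for Prm3, -0.21 to 0.33 for Tnp1 and -0.15 to 0.34 for Tnp2. In ES it ran from -0.25 to 0.00149 for the main Prm1 contig, 0.0104 to 0.73 for the distal Prm1 contig, -0.25 to -0.00548 for Prm2, -0.37 to -0.0905 for Prm3, -0.19 to 0.19 for Tnp1 and -0.25 to -0.00992 for Tnp2. The interaction ran from -0.38 to 0.15 for the main Prm1 contig, -0.29 to 0.71 for the distal Prm1 contig, -0.41 to 0.0807 for Prm2, -0.22 to 0.20 for Prm3, -0.32 to 0.22 for Tnp1 and -0.44 to 0.0488 for Tnp2. The causes were not tested.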
